A study of Rattus norvegicus with 8 samples.

Results

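The mitochondrial ribosomal protein genes encode the protein subunits of the mitoribosome, the ribosome inside mitochondria. They were taken as the probe sets whose only gene symbol in the platform annotation begins with Mrpl or Mrps followed by a digit, with the probe set of the highest mean kept for each gene. This gave 68 genes of the 14511 named genes compared, 41 of the large subunit (Mrpl) and 27 of the small subunit (Mrps). They were measured in the livers of male Wistar rats, 6 to 10 weeks old, on 8 Affymetrix whole-transcript arrays, 4 perfused with hypoosmotic Krebs-Henseleit buffer (225 mosm/L) and 4 with normoosmotic buffer of the same kind (305 mosm/L), all at the 180 min time point. Krebs-Henseleit buffer is a bicarbonate-buffered salt solution, and in a dilute buffer liver cells take up water and swell. The comparison asks which mitoribosomal transcripts change in level when the perfusate is dilute.

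The mitoribosome translates the few proteins that mitochondrial DNA encodes, all of them core subunits of the respiratory chain and ATP synthase, and these are abundant in liver. Its RNAs come from mitochondrial DNA, while all its proteins are encoded in the nucleus, made in the cytosol and imported, so building one draws on both genomes. Some of its proteins descend from those of bacterial ribosomes, and others are found only in mitochondria. Transcription factors such as NRF1, the ETS family factor GABPA, and YY1 are known to act at promoters of nuclear genes for mitochondrial proteins.

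The arrays measure homogenised whole liver, where fewer cells of a type and less RNA per cell cannot be told apart. The deposited values are log2 intensities, and changes are given on that scale as hypoosmotic minus normoosmotic means, each with its limma standard error (SE). Hepatocyte markers were present in both groups, with a mean for Alb of 13.05 in hypoosmotic and 13.11 in normoosmotic livers, and 0 of 10 passed the test between groups. Among markers of other liver cells, 5 of 5 measured sinusoidal endothelial markers had a higher hypoosmotic mean (median change 0.35), against 53.2% of all genes. Of these 1 passed, the receptor gene Kdr (0.66 ± 0.15 SE, limma adjusted p = 0.0280), while 2.45% of all genes passed as higher. Kdr passed in 2 of 8 fits without 1 array (adjusted p 0.0254 to 0.0654). The 8 Kupffer cell markers had a median change of -0.025, the 6 stellate cell markers 0.26 and the 4 measured cholangiocyte markers 0.015. The 5 measured lymphocyte markers had one of 0.060 and the 3 measured erythroid markers 0.078, with 0 passing in each of these lists. Kupffer markers ran from -0.25 (Cd163) to 0.47 (Clec4f), with Cd14 at 0.42 ± 0.16 (adjusted p = 0.153). Hepatocyte markers ran from -0.215 (Cyp2e1) to 0.48 (Hnf4a, SE 0.18, adjusted p = 0.146). The cholangiocyte marker Cftr and the lymphocyte markers Cd3d and Nkg7 had means under 3.07 in both groups, the background level described below, so their changes say little. The erythroid marker Hbb was uneven within the normoosmotic group. It had 5.64, 6.57, 7.44 and 8.75 on normoosmotic arrays, against 7.08, 7.45, 7.03 and 6.98 on hypoosmotic arrays. The stellate values turned on single hypoosmotic arrays. On hypoosmotic array 4, 4 of the 6 markers had their lowest hypoosmotic value, among them Lrat, Col1a1 and Dcn. On hypoosmotic array 3, 4 of the 6 had their highest, ties included. The matrix protein gene Dcn had 8.01, 8.01, 7.96 and 5.82 on hypoosmotic arrays, against 7.09, 7.08, 7.13 and 7.23 on normoosmotic arrays. Without hypoosmotic array 4 the median of the list was 0.43 and Dcn passed (0.86 ± 0.099, adjusted p = 0.00438). Without hypoosmotic array 3 the median was 0.135 and 0 passed. Reln had the opposite sign with all arrays (-0.57 ± 0.18, adjusted p = 0.0850), and passed in 1 of 8 fits without 1 array (adjusted p 0.0461 to 0.198). The part of these cell types in the mitoribosomal values was not tested. On the second principal component, which held 18.9% of the variance, hypoosmotic replicate 3 stood apart from the other arrays (-28.5, against -6.60 to 15.3). Precision is limited by having 4 arrays in a group. Whether each array stands for its own animal is not given in the labels, and the p-values reflect only the spread among these arrays, part of which may be technical.

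The stretches upstream of 4 members are shown to let the promoter letters be set beside the expression values that follow. Mrps16 and Mrpl40 had the largest changes of their subunits, Mrps18b had a change of exactly 0.00, and Mrps11 shares its upstream region with Mrpl46, a gene of the other subunit. Each is the 250 bases before the transcription start in RefSeq (GRCr8), 5′ to 3′ on the gene's strand, at chr15:3967559-3967808 (+), chr11:95637501-95637750 (+), chr20:2842756-2843005 (+) and chr1:142117014-142117263 (+) in that order of genes. Capitals mark matches on either strand to 5 motifs, the NRF1 core TGCGCA, the ETS motif CCGGAAG, the YY1 motif AAGATGG, the Sp1 box GGGCGG and the E-box CACGTG.
Mrps16: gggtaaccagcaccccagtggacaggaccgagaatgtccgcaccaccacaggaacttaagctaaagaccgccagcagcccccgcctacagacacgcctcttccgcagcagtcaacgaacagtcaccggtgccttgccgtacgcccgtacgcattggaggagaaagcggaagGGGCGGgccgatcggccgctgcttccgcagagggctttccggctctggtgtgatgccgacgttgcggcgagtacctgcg
Mrpl40: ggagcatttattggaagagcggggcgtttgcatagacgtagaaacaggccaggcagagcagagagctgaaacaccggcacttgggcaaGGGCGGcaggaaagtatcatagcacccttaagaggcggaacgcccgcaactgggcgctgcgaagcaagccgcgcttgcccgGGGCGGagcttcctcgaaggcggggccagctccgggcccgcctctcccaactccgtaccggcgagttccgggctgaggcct
Mrps18b: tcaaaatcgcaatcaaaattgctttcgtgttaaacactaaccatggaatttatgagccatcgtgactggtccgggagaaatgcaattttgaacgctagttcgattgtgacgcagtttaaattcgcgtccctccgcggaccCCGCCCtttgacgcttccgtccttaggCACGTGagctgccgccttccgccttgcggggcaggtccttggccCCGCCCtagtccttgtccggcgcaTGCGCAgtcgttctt
Mrps11: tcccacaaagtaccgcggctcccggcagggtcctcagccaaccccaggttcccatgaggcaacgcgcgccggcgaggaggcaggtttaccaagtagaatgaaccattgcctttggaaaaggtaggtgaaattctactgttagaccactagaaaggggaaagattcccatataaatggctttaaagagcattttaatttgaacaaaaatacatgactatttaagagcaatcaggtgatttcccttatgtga
The Mrps16 and Mrpl40 stretches held Sp1 boxes and none of the other motifs. The Mrps18b stretch held an NRF1 core, an E-box and Sp1 boxes, and that of Mrps11 held none of the 5. The printed stretches end at the start site, and matches that cross it or lie past it are not marked. These were an ETS motif across the start and a YY1 motif past it in Mrps18b, which thus held all 3 in the longer window counted next, and a further Sp1 box past the start in Mrpl40. A match is a description of letters and not a site.

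Across the RefSeq windows from 250 bases before to 50 after a start, 54 of the 68 members were found, 33 of the large and 21 of the small subunit. The NRF1 core stood in 15 of the 54 (27.8%), against 10.6% of the windows of all genes tested and 7.68% of all windows. The ETS motif stood in 18 (33.3%, against 13.0% of tested genes and 9.22% of all windows). The YY1 motif stood in 15 (27.8%, against 7.51% and 7.30%). Sp1 boxes were common everywhere, in 29 members (53.7%) and in 50.2% of tested genes and 34.9% of all windows, and the E-box stood in 6 members (11.1%, against 7.88% and 6.65%). At least 1 of the NRF1, ETS and YY1 motifs was found in 35 members, all 3 of them in 3 members, and none of the 5 motifs in 9. None of the motifs contains another, and each was counted on its own. The median expression change of members was 0.18 for those holding the NRF1 core and 0.19 for those without it, 0.20 and 0.18 for the ETS motif, 0.17 and 0.20 for YY1, 0.18 and 0.19 for Sp1, and 0.165 and 0.19 for the E-box.

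In hypoosmotic livers 56 of the 68 mitoribosomal genes had a higher mean than in normoosmotic livers, 11 had a lower one and 1 was equal. Over all genes tested, 53.2% had a higher hypoosmotic mean, against 82.4% of the members. The members' median change was 0.18, with a range of -0.13 to 0.45, and the median over all genes was 0.015. The median SE of a member's change was 0.13. Only 1 member passed the test (limma, Benjamini-Hochberg adjusted over all genes, threshold 0.05), Mrpl15, which was higher. That is 1.47% of the members, while 7.07% of all genes passed, 2.45% higher and 4.62% lower. As a share of rises it rests on 1 gene and lies near the 2.45% of all genes. The number of members called higher ran from 0 to 4 over the other settings described below. At an unadjusted p under 0.05, 11 members were higher and 0 lower, against 9.77% of all genes higher and 10.9% lower.

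The changes of the members had an SD of 0.15 among themselves, against 0.29 over all genes. The SD of the cytosolic ribosomal protein genes, described below, was smaller still at 0.076. The members' SD was close to the median SE of their changes, 0.13. A change above 0.3 was found in 12 members and in 10.5% of all genes, and a change below -0.3 in 0 members and 10.8% of all genes. The 95% interval of the change lay within 2-fold in either direction for all 68 members and within 1.5-fold for 53. It lay above 0 for 11 members and below 0 for 0. Every member was measured well above the level of odorant receptor genes, taken here as a mark of background signal. Their mean levels ran from 4.50 to 8.83 and their lowest single value was 4.17, while 95% of 1105 odorant receptor genes had means under 3.07.

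**Figure D1:**
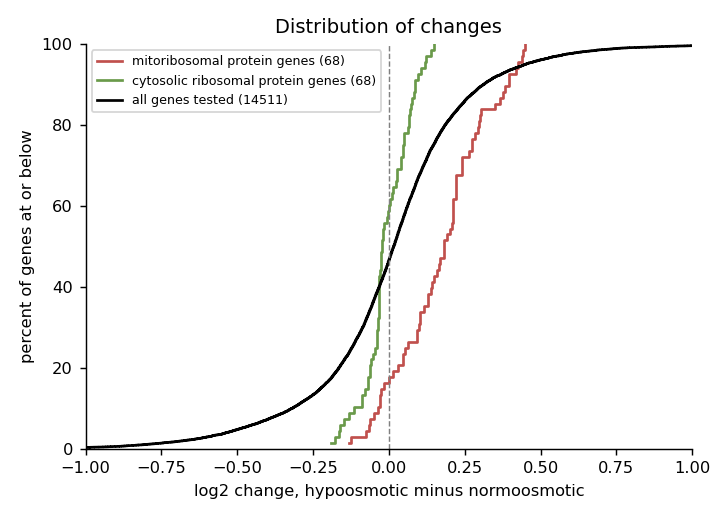
Cumulative distribution: percent of genes at or below each log2 change (hypoosmotic minus normoosmotic), for the 68 mitoribosomal genes, the 68 cytosolic ribosomal protein genes and all 14511 genes, with the axis drawn from -1 to 1. The mitoribosomal curve lies mostly to the right of 0, with a median of 0.18, while cytosolic ribosomal protein genes sit around -0.02 and all genes around 0.015.

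The plot of these distributions sets the mitoribosome beside its cytosolic counterpart, whose proteins are encoded by another gene family. The 68 cytosolic ribosomal protein genes measured had changes from -0.19 to 0.15 with a median of -0.023. Of these, 27 had a higher and 40 a lower hypoosmotic mean, 0 passed the test and 0 reached an unadjusted p under 0.05. No test of the difference between the families was made. Higher means were also found outside the mitoribosome, in nuclear genes of the mitochondrial ATP synthase. The changes of Atp5f1a, Atp5f1b, Atp5f1c, Atp5f1d and Atp5f1e were 0.15, 0.155, 0.025, 0.345 and 0.22, and none passed. The shift is thus not shown to be particular to the mitoribosome.

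Array by array, the groups overlapped. Each gene's value was set against its own normoosmotic mean and the median taken over the 68. These medians were 0.25, 0.33, 0.059 and 0.074 on hypoosmotic arrays 1 to 4, against -0.054, 0.15, 0.0088 and -0.11 on normoosmotic arrays 1 to 4. Hypoosmotic arrays 1 and 2 stood highest, and normoosmotic array 2 stood above hypoosmotic arrays 3 and 4. Counted by gene, 63, 65, 43 and 41 of the 68 were above their normoosmotic mean on the hypoosmotic arrays, and 25, 61, 36 and 12 on the normoosmotic ones. The arrays that stood high for mitoribosomal genes were partly those that stood high for cytosolic ones. The medians of the cytosolic ribosomal protein genes were 0.15, 0.16, -0.068 and -0.25 on hypoosmotic arrays and -0.046, 0.080, 0.090 and -0.099 on normoosmotic arrays. On hypoosmotic array 4, 0 of 68 cytosolic genes were above their normoosmotic mean, against 41 of 68 mitoribosomal ones. The medians of all genes stayed between -0.010 and 0.028.

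The spread of the deposited values differed slightly between arrays, with upper quartiles over all probe sets of 5.96, 5.96, 5.84 and 5.90 on hypoosmotic arrays and 5.93, 6.00, 5.94 and 5.91 on normoosmotic arrays. After a further quantile normalization, an alternative chosen for these medians after seeing the data, the members' medians were 0.25, 0.29, 0.17 and 0.12 on hypoosmotic arrays and -0.042, 0.093, 0.0056 and -0.078 on normoosmotic arrays. The groups then did not overlap, which holds for this setting only. Array medians over all probe sets were highest on hypoosmotic array 3 (4.05) and lowest on normoosmotic array 2 (3.92). Centring arrays on their medians would therefore lower the first and raise the second, and so would not remove the overlap. Without hypoosmotic replicate 3, the array apart from the others, the members' median change was 0.19 and 0 members passed. Without hypoosmotic replicate 4, the array with the low stellate markers, it was 0.23 and 2 passed, Mrpl15 (adjusted p = 0.0286) and Mrpl16 (0.0376).

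**Figure D2:**
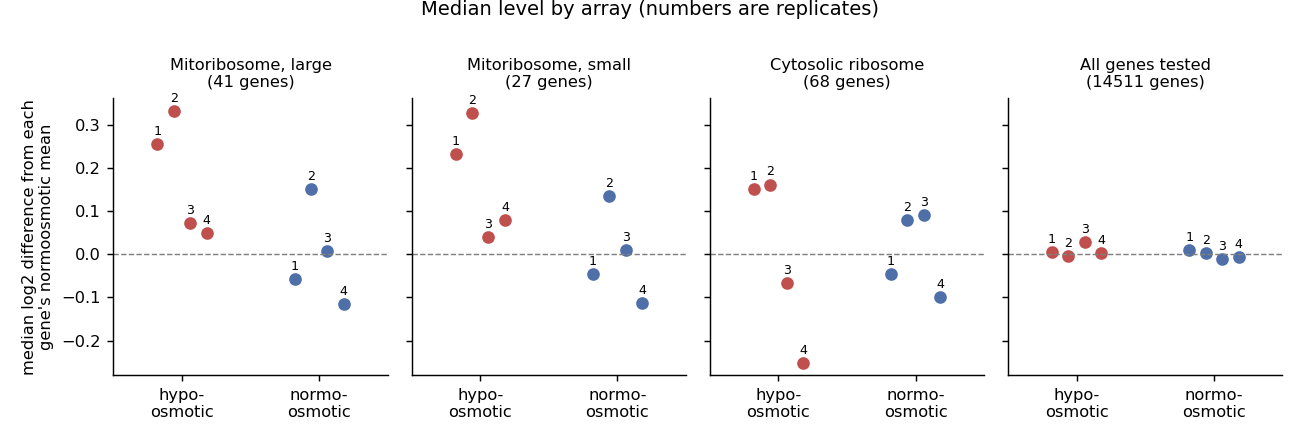
Median log2 difference from each gene's normoosmotic mean (vertical axis), per array, for large subunit, small subunit, cytosolic ribosomal protein and all genes, hypoosmotic arrays left of normoosmotic ones and numbered by replicate. In both mitoribosomal panels hypoosmotic arrays 1 and 2 are highest, and normoosmotic array 2 (0.15 for the large subunit, 0.135 for the small) lies above hypoosmotic arrays 3 and 4.

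Large and small subunit genes had medians close to each other, and their difference was not tested. Genes were assigned to a subunit by symbol, so Mrps18a and Mrps30, whose human proteins sit in the large subunit, were counted with the small one. The 41 large subunit genes had a median change of 0.18, with 34 higher means, 8 at an unadjusted p under 0.05 and 1 that passed. The 27 small subunit genes had a median change of 0.16, with 22 higher means, 3 at an unadjusted p under 0.05 and 0 that passed. Those at an unadjusted p under 0.05, all higher, were 19.5% of the large and 11.1% of the small subunit. The share of all genes was 9.77%, near that of the small subunit. The 1 large subunit gene that passed was 2.44% of its subunit, against 2.45% of all genes passing as higher. On each of the 8 arrays the median deviations of the subunits were close, for example 0.33 for the large and 0.33 for the small subunit on hypoosmotic array 2, and 0.050 and 0.080 on hypoosmotic array 4. Members with bacterial counterparts (41 genes) had a median change of 0.18, and mitochondria-specific members (27 genes) had one of 0.19.

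All 4 hypoosmotic arrays lay above all 4 normoosmotic arrays for 5 members, Mrpl15, Mrpl36, Mrpl40, Mrps23 and Mrps27, which is 7.35% of the 68. Over all genes this held for 5.33%. The opposite order held for 0 members and for 8.21% of all genes. Values per array are in order of replicate number. In the core of the large subunit, Mrpl15, a protein with a bacterial counterpart, had 6.54, 6.56, 6.34 and 6.19 on hypoosmotic arrays, against 6.13, 5.98, 5.91 and 5.85 on normoosmotic arrays. It averaged 6.41 ± 0.18 in hypoosmotic and 5.97 ± 0.12 in normoosmotic livers (SD, n = 4 each), a change of 0.44 ± 0.12 (SE, limma adjusted p = 0.0453). This call was close to the threshold. It passed in 1 of 8 fits without 1 array (adjusted p 0.0286 to 0.122, highest without normoosmotic replicate 3), and was lost with an intensity trend (0.0504) and with arrays centred on their medians (0.0768). RefSeq lists 2 like-named copies of Mrpl15, and 23 of the 68 members have at least 1 such copy, so probes of these genes may read more than 1 locus.

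Of the other core large subunit proteins with bacterial counterparts, Mrpl16, a protein close to the peptidyl transferase centre, came nearest to passing. It had 7.03, 7.14, 7.07 and 6.72 on hypoosmotic arrays, against 6.50, 6.77, 6.66 and 6.33 on normoosmotic arrays, and the groups overlapped through hypoosmotic array 4 alone. Its change was 0.425 ± 0.13 (adjusted p = 0.0787). Mrpl36, a small zinc-binding protein, had 5.28, 5.78, 5.33 and 5.30 in hypoosmotic and 4.65, 5.26, 5.19 and 5.06 in normoosmotic livers (change 0.38, adjusted p = 0.193). The groups just failed to touch, and normoosmotic array 1 was the lowest. Mrpl30 (0.375) and Mrpl14 (0.35) also had an unadjusted p under 0.05, with adjusted p of 0.180 and 0.179. At the other end, Mrpl32 (-0.125 ± 0.16, adjusted p = 0.758) and Mrpl1 (-0.075, adjusted p = 0.782) had lower hypoosmotic means by less than their error. Over these 15 genes the median change was 0.165 and 12 had higher means.

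The central protuberance is the crown of the large subunit that faces the small one. All 8 of its measured members had higher means, against 82.4% of the 68 members and 53.2% of all genes. Their median change was 0.20, with a range of 0.093 to 0.44. None passed the test. Mrpl40, a mitochondria-specific protein, had 5.07, 5.31, 5.02 and 5.28 on hypoosmotic arrays, against 4.68, 4.95, 4.47 and 4.81 on normoosmotic arrays. The groups did not overlap, with normoosmotic array 2 nearest to the hypoosmotic range, and the change was 0.44 ± 0.13 (adjusted p = 0.0606). A second probe set of Mrpl40 gave a change of 0.435. Mrpl18, the counterpart of the bacterial protein that binds 5S RNA, had a change of 0.365 (adjusted p = 0.143).

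The L7/L12 stalk recruits translation factors to the ribosome. Mrpl12, the stalk protein itself, which in human cells also binds the mitochondrial RNA polymerase, had 6.11, 5.84, 5.43 and 5.49 on hypoosmotic arrays and 5.77, 5.80, 6.03 and 5.47 on normoosmotic arrays, a change of -0.050 ± 0.17 (adjusted p = 0.919). Its groups overlapped through most of their range, with hypoosmotic array 1 above and hypoosmotic array 3 below every normoosmotic array. The change of Mrpl10, which anchors the stalk, was 0.18 ± 0.13 (adjusted p = 0.512). The 4 genes of the stalk and its base had a median change of 0.12 with 3 higher means. Around the exit of the polypeptide tunnel the 6 genes had a median change of 0.099, and 4 had higher means. Among them, Mrpl23, which lines the exit, had a change of 0.27 ± 0.13 (adjusted p = 0.286). Mrpl45, which tethers the ribosome to the inner membrane, had one of 0.015 ± 0.15, and Mrpl17 one of -0.028. The remaining 8 mitochondria-specific large subunit genes had a median change of 0.22 with 7 higher means. Mrpl51 had the smallest p of these, with 6.67, 6.55, 6.27 and 6.67 in hypoosmotic and 6.32, 6.41, 5.90 and 5.95 in normoosmotic livers (change 0.395 ± 0.15, adjusted p = 0.141).

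**Figure D3:**
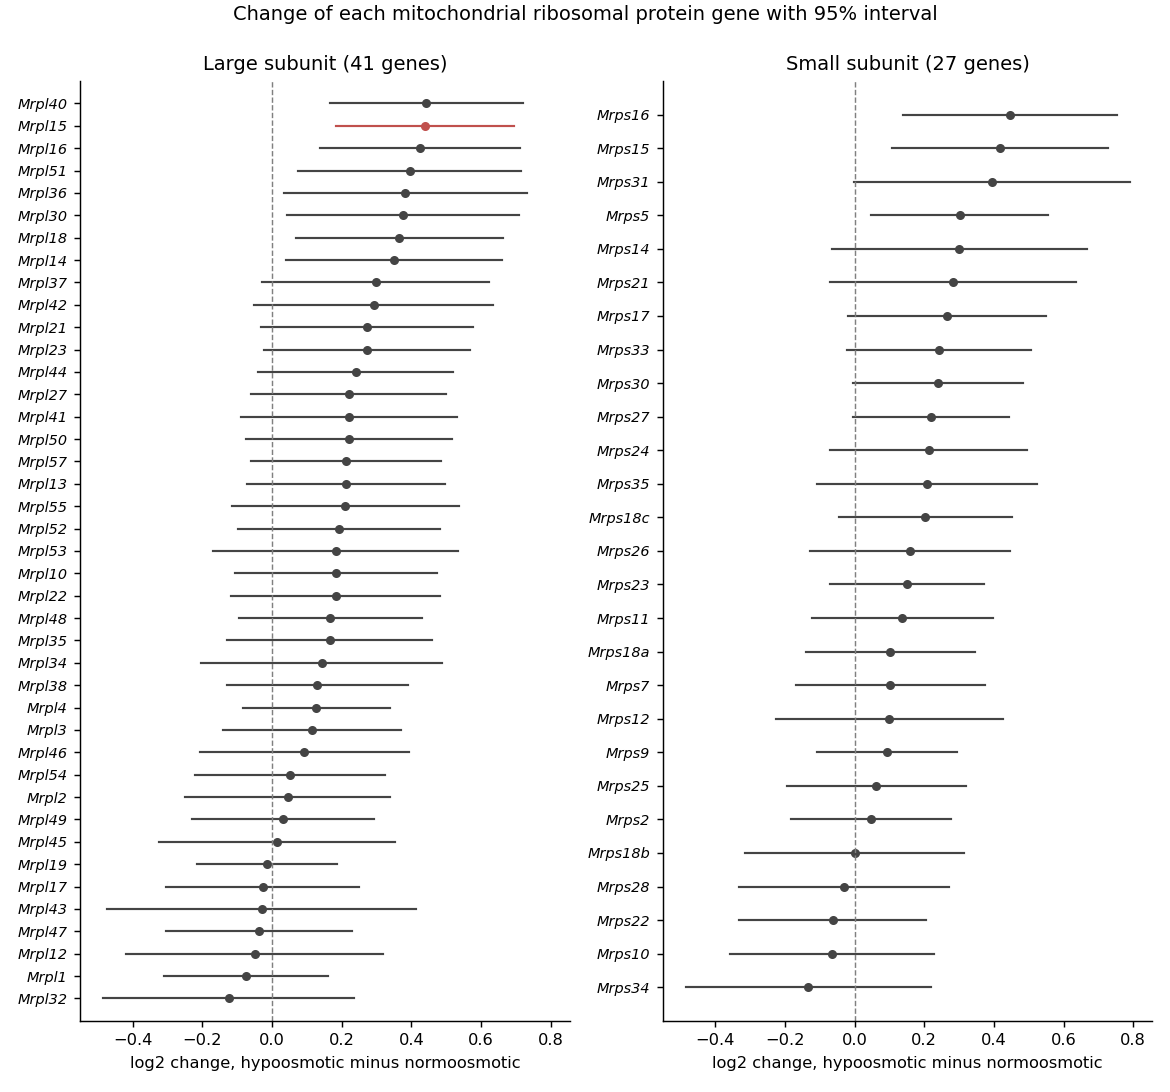
Log2 change (hypoosmotic minus normoosmotic) of each of the 68 mitoribosomal genes with its 95% interval, ordered by size within the large and the small subunit, in red where the test was passed. Most points lie to the right of 0, Mrpl15 is the 1 gene in red, and no interval lies below 0.

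In the small subunit 17 genes had bacterial counterparts, with a median change of 0.14 and 14 higher means. Mrps16, a protein of the subunit body whose loss in humans causes a respiratory chain disorder, had 7.61, 7.66, 7.19 and 7.26 on hypoosmotic arrays, against 6.92, 7.25, 6.90 and 6.86 on normoosmotic arrays. Its change of 0.45 ± 0.14 was the largest among the 68 members (adjusted p = 0.0831). Hypoosmotic arrays 1 and 2 were the highest, and normoosmotic array 2 reached into the hypoosmotic range. Mrps15 showed the same shape, with 6.95, 6.95, 6.76 and 6.66 in hypoosmotic and 6.20, 6.74, 6.52 and 6.19 in normoosmotic livers (change 0.42 ± 0.14, adjusted p = 0.108), and normoosmotic array 2 was again the one that overlapped. Mrps5 had a change of 0.30 (adjusted p = 0.155). Mrps12, which forms part of the decoding centre, had 5.13, 5.45, 4.69 and 5.06 on hypoosmotic arrays and 4.91, 4.90, 5.11 and 5.01 on normoosmotic arrays. Its change was 0.10 ± 0.15 (adjusted p = 0.792), and hypoosmotic array 3 was the lowest of all 8.

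Mammals have 3 genes that descend from 1 bacterial S18 protein, and each fills a different place in the mitoribosome. Mrps18b had 7.57, 7.20, 6.91 and 7.46 on hypoosmotic arrays and 7.23, 7.42, 7.18 and 7.31 on normoosmotic arrays, with a change of 0.00 ± 0.14 and a 95% interval from -0.32 to 0.32. Mrps18a had 7.25, 7.54, 7.22 and 7.21 in hypoosmotic and 7.10, 7.32, 7.26 and 7.13 in normoosmotic livers (change 0.10 ± 0.11, adjusted p = 0.693). Mrps18c had 7.86, 7.90, 7.84 and 7.50 in hypoosmotic and 7.62, 7.64, 7.55 and 7.48 in normoosmotic livers (0.20 ± 0.11, adjusted p = 0.357). The groups overlapped for all 3 genes, and differences between the 3 changes were not tested.

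The 10 mitochondria-specific small subunit genes had a median change of 0.18 and 8 higher means. Mrps27, a pentatricopeptide repeat protein that binds RNA, had 5.93, 5.89, 5.82 and 5.72 on hypoosmotic arrays, against 5.69, 5.63, 5.45 and 5.71 on normoosmotic arrays. The groups nearly met and did not overlap, and the change was 0.22 ± 0.10 (adjusted p = 0.253). Mrps23 was as narrowly separated, with 6.65, 6.68, 6.62 and 6.62 in hypoosmotic and 6.40, 6.61, 6.61 and 6.35 in normoosmotic livers (0.15 ± 0.10, adjusted p = 0.468). Mrps31 had a change of 0.395 ± 0.18 (adjusted p = 0.243). Mrps30, whose human protein sits in the large subunit in spite of its name, as does that of Mrps18a, had 7.53, 7.50, 7.27 and 7.59 on hypoosmotic arrays and 7.18, 7.42, 7.21 and 7.12 on normoosmotic arrays (0.24 ± 0.11, adjusted p = 0.252). Mrps34, mutated in a human mitochondrial disease, had the lowest change of the 68. Its values were 7.07, 7.16, 6.41 and 6.64 in hypoosmotic and 6.95, 7.06, 6.96 and 6.84 in normoosmotic livers (-0.13 ± 0.16, adjusted p = 0.732), with hypoosmotic arrays 3 and 4 low and arrays 1 and 2 above every normoosmotic array. Mrps22 (-0.063, adjusted p = 0.853) and Mrps10 (-0.065, adjusted p = 0.860) had slightly lower hypoosmotic means.

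**Figure D4:**
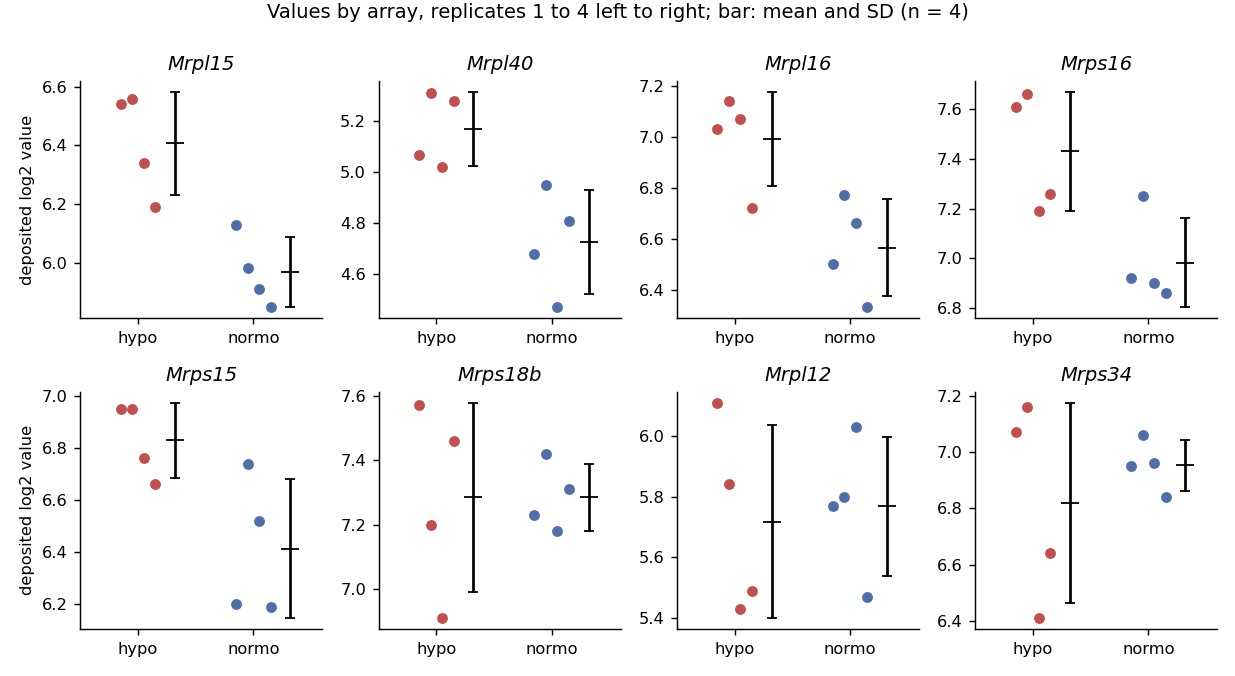
Deposited log2 values per array of 8 mitoribosomal genes, hypoosmotic arrays left of normoosmotic ones, with bars for the group mean and SD (n = 4). The vertical axes do not start at 0 and differ between genes. Mrpl15 and Mrpl40 have groups that do not overlap, Mrps16 overlaps through normoosmotic array 2, and Mrpl12 and Mrps18b overlap through most of their range.

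Some subunits carry symbols of another form and were not among the 68. Of 6 such genes listed, 5 were measured, 0 passed, and their median change was 0.023. Aurkaip1, a small subunit protein, had 7.89, 7.93, 7.86 and 7.84 on hypoosmotic arrays, against 7.51, 7.80, 7.42 and 7.30 on normoosmotic arrays. Its groups did not overlap, and its change was 0.37 ± 0.12 (adjusted p = 0.0852). The changes of the GTP-binding subunit Dap3 (0.023), Gadd45gip1 (0.068), the pentatricopeptide repeat protein Ptcd3 (-0.088) and Chchd1 (-0.13) were within their errors. The annotation spells 3 subunits in lower case, and these were given after their values were seen. They were mrpl11 of the stalk base (0.40 ± 0.18, adjusted p = 0.245), mrpl9 (0.055, adjusted p = 0.876) and mrpl24 (-0.22 ± 0.12, adjusted p = 0.360). Kgd4, earlier named Mrps36 and known as part of the 2-oxoglutarate dehydrogenase complex, had a change of 0.19 (adjusted p = 0.582). Mrpl20, Mrpl28, Mrpl33, Mrpl39, Mrpl58 and Mrps6, and the 13 proteins encoded by mitochondrial DNA, were not analysed here.

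For 4 members a second probe set could be compared, and none went the other way. The kept and the other probe set had changes of 0.44 and 0.435 for Mrpl40, 0.22 and 0.19 for Mrpl41, 0.29 and 0.23 for Mrpl42, and 0.14 and 0.25 for Mrps11. In RefSeq, 14 of the 54 members with a window start within 300 bases of a gene that runs the other way. Of these, 12 partners were not members, 9 of them were measured, and 0 passed. As 7.07% of all genes passed, 0 of 9 says little. Mrpl46 and Mrps11, whose starts lie 234 bases apart, had changes of 0.093 and 0.14. Mrps27 (0.22) and Ptcd2 (0.205) lay close, as did Mrps18c (0.20) and Helq (0.18). Of the 9 measured pairs with a partner outside the family, 5 had changes of the same sign and 4 of opposite sign. Mrpl40 and its neighbour Hira, a histone chaperone gene 186 bases away, went opposite ways, with changes of 0.44 and -0.38 ± 0.11 (Hira adjusted p = 0.0600). Mrpl47 (-0.038) and the respiratory complex I gene Ndufb5 (0.315 ± 0.099, adjusted p = 0.0846) also differed in sign, as did Mrpl30 (0.375) and Mitd1 (-0.58 ± 0.30, adjusted p = 0.317) and Mrpl27 (0.22) and Eme1 (-0.048 ± 0.11).

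The genes that build, serve and regulate the mitoribosome had changes in both directions. Of 86 genes listed in 6 groups, the subunits of other symbols included, 66 were measured, 4 passed as higher (6.06%, against 2.45% of all genes) and 6 as lower (9.09%, against 4.62%). Their changes ran from -0.88 to 1.17 with a median of 0.051. Among 19 assembly and rRNA modification genes the median was 0.035. Gtpbp10, a GTPase of large subunit assembly, had 5.31, 5.33, 5.18 and 4.83 on hypoosmotic arrays and 4.68, 4.85, 4.59 and 4.52 on normoosmotic arrays and was higher (0.50 ± 0.13, adjusted p = 0.0441). Mterf3, known in mice to limit mitochondrial transcription and to act in ribosome assembly, had 6.36, 5.95, 6.31 and 6.63 on hypoosmotic arrays, against 6.95, 6.87, 6.85 and 6.78 on normoosmotic arrays, and fell by 0.55 (SE 0.14, adjusted p = 0.0358). Nsun4, an rRNA methyltransferase (-0.53, adjusted p = 0.0653), and the GTPase Noa1 (-0.405, adjusted p = 0.0844) did not pass. The 11 translation factor genes had a median of 0.11. One passed, Guf1, the mitochondrial elongation factor 4, with 7.02, 6.94, 6.80 and 6.77 in hypoosmotic and 6.38, 6.57, 6.56 and 6.25 in normoosmotic livers (0.44 ± 0.11, adjusted p = 0.0379). The recycling factor gene Gfm2 (0.4975 ± 0.16, adjusted p = 0.0928), Taco1, a translational activator (0.39, adjusted p = 0.171), the release factor gene Mtrf1l (-0.22, adjusted p = 0.357) and Lrpprc, which stabilises mitochondrial mRNAs (-0.030), did not.

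Mitochondrial tRNA synthetases charge the tRNAs that the mitoribosome uses, and the 13 measured had a median change of 0.17. Yars2, the tyrosine enzyme, had 4.30, 4.41, 4.43 and 4.48 on hypoosmotic arrays, against 5.22, 5.11, 5.35 and 5.08 on normoosmotic arrays. It fell by 0.785 (SE 0.10, adjusted p = 0.00357), and every hypoosmotic array lay well below every normoosmotic one. Rars2, the arginine enzyme, had 5.64, 5.37, 4.99 and 5.18 in hypoosmotic and 4.49, 4.81, 4.22 and 4.26 in normoosmotic livers and rose by 0.85 ± 0.17 (adjusted p = 0.0136). Both passed in all 8 fits without 1 array. Pars2 (0.48, adjusted p = 0.0850) and Lars2 (0.29, adjusted p = 0.0951) did not pass. In mitochondrial transcription and RNA processing, 9 genes had a median of -0.165. Tfb2m, the factor that opens mitochondrial promoters, had 6.62, 6.50, 6.28 and 6.87 in hypoosmotic and 7.54, 7.03, 7.04 and 7.13 in normoosmotic livers and fell by 0.62 (SE 0.15, adjusted p = 0.0357). Trmt10c, a subunit of mitochondrial RNase P (-0.72, adjusted p = 0.0552), the mitochondrial RNA polymerase gene Polrmt (-0.37 ± 0.12), Tfam, which packages mitochondrial DNA (-0.21, adjusted p = 0.426), and Mterf2, a factor of the same family as Mterf3 (0.43, adjusted p = 0.170), did not pass. Mterf2 lay near the background level of 3.07, with means of 3.14 in hypoosmotic and 2.71 in normoosmotic livers. Its highest value, 3.66, was on hypoosmotic array 1.

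The 4 calls of Gtpbp10, Mterf3, Guf1 and Tfb2m were close to the threshold. They were lost in most fits without 1 array, whether the array left out was hypoosmotic or normoosmotic. Without 1 array in turn, Gtpbp10 passed in 1 of 8 fits, with adjusted p from 0.0157 to 0.119, weakest without normoosmotic replicate 3. Mterf3 also passed in 1, with 0.0165 to 0.0914, weakest without normoosmotic replicate 1. The range was 0.0417 to 0.102 for Guf1, which passed in 2 fits and was weakest without normoosmotic replicate 4. It was 0.0218 to 0.0890 for Tfb2m, which passed in 1 fit and was weakest without hypoosmotic replicate 2.

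Regulators of mitochondrial biogenesis had the largest changes of the lists, in both directions, with 1 higher and 3 lower of 9 measured and a median of -0.078. Ppargc1a, the coactivator PGC-1α, had 5.47, 6.21, 6.41 and 6.15 on hypoosmotic arrays, against 5.04, 5.30, 4.87 and 4.37 on normoosmotic arrays (change 1.17 ± 0.23, adjusted p = 0.0132). Its relative Pprc1 had 6.31, 6.18, 5.42 and 6.15 in hypoosmotic and 6.77, 6.82, 7.03 and 6.97 in normoosmotic livers and fell by 0.88 (SE 0.18, adjusted p = 0.0153). These coactivators of 1 family had changes of opposite sign, and the other measured relative, Ppargc1b, had one of 0.19 ± 0.15 (adjusted p = 0.544). Yy1 had 6.83, 6.94, 6.65 and 6.73 in hypoosmotic and 7.25, 7.36, 7.57 and 7.49 in normoosmotic livers and fell by 0.63 (SE 0.11, adjusted p = 0.00924). Myc, a transcription factor of growth, had 8.64, 8.64, 8.43 and 8.96 in hypoosmotic and 9.06, 9.43, 9.72 and 9.30 in normoosmotic livers (-0.71 ± 0.16, adjusted p = 0.0220). Ppargc1a and Yy1 passed in all 8 fits without 1 array. Pprc1 passed in 7 (0.0507 without normoosmotic replicate 3) and Myc in 4 (up to 0.0604 without normoosmotic replicate 3). The factors whose motifs were counted above had changes of -0.078 for Nrf1 (adjusted p = 0.803) and -0.25 for Gabpa (adjusted p = 0.279), and the nuclear receptor gene Esrra one of 0.135 (adjusted p = 0.640).

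**Figure D5:**
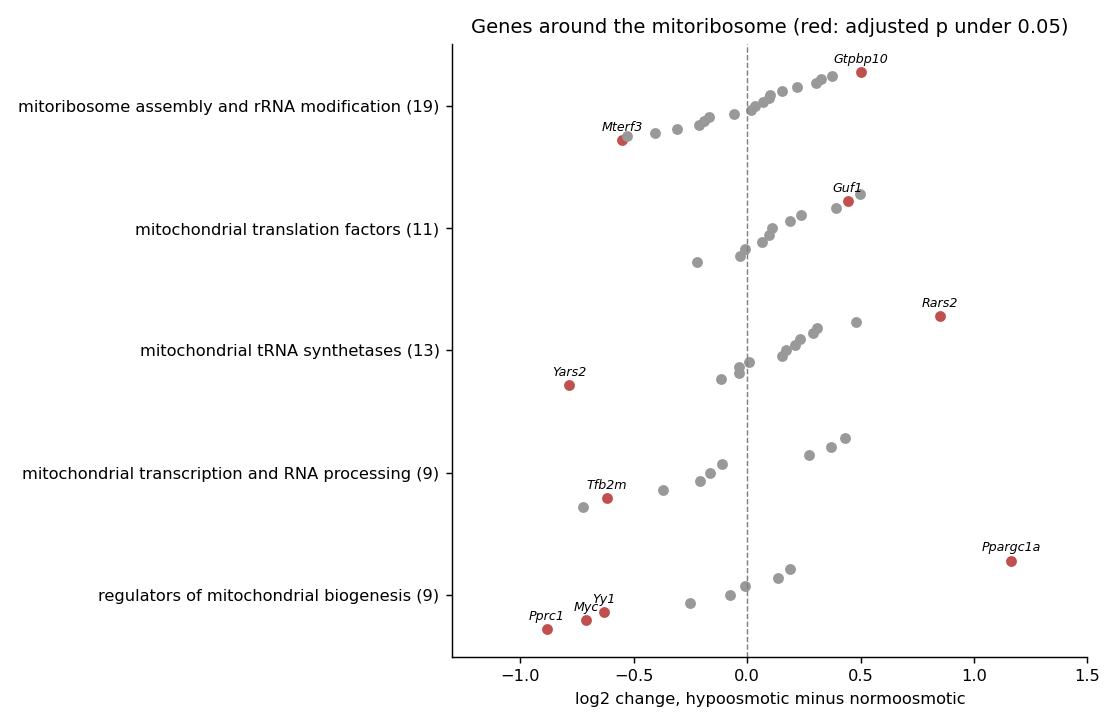
Log2 change (hypoosmotic minus normoosmotic) of the measured genes of 5 lists around the mitoribosome, with the number measured in brackets and genes that passed the test in red. The changes run from -0.88 (Pprc1) to 1.17 (Ppargc1a), wider than the -0.13 to 0.45 of the mitoribosomal genes.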

How the data were processed

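RNA from perfused rat liver was measured on 8 arrays, 4 hypoosmotic and 4 normoosmotic, grouped by the sample titles. The authors deposited log2 expression values for 27596 probe sets. The tools named in the submitters' processing notes are RMA, Transcriptome Analysis Console 4.0 and Affymetrix Expression Console, without their order. RMA is known to equalise the arrays' distributions, which takes out any change that most genes share. Array medians lay between 3.92 and 4.05. Scanner files and scan information were not used here.

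The platform annotation gave 1 symbol for 15316 probe sets and several for 317, and 11963 were unnamed here. Symbols were updated through RefSeq's rat genes (15279 by gene identifier, 8 by accession, 29 kept, 2 changed). The highest-mean probe set was used for 528 genes with several, which left 14511 genes. The 68 members came from 72 probe sets.

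The groups were compared in R 4.3.3 with limma 3.58.1 (lmFit, then eBayes, group as the only term, two-sided p-values adjusted by Benjamini-Hochberg over all genes, threshold 0.05). Levels are means ± SD with n = 4. Lists were described by counts and medians. Other settings tried were array weights, the replicate number as a block, an intensity trend fitted robustly, a further quantile normalization, median centring, leaving out the 30% dimmest genes, averaging or jointly testing probe sets, and leaving out each array. The fit was tested on simulated data.

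The members, lists and naming rule were chosen with earlier results of these data known. The rule took members that passed with groups that did not overlap, the 5 smallest p in each direction, the smallest of each structural group, the 5 changes nearest to 0, genes given whatever their value, and up to 4 genes with the smallest p from each surrounding list. Other members at an unadjusted p under 0.05 or with groups that did not overlap were named after their values were seen. So were second probe sets, divergent partners, Ppargc1b, genes of ATP synthase, marker genes and subunits of other spelling.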

Additional observations from a re-analysis of the deposited data

Results flagged for a closer look

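In 7 of 176 groups examined, 1 array lay far from the other 3, and chance alone flags about 1 in 20 groups. The groups were those of 88 of the named genes in each condition, 56 of them named by rule. Mrps16 had 7.25 on normoosmotic replicate 2, above the 6.86 to 6.92 of the other normoosmotic arrays. Mrps18a had 7.54 on hypoosmotic replicate 2, above the others at 7.21 to 7.25. Mrps18c had 7.50 on hypoosmotic replicate 4, below the others at 7.84 to 7.90. Ptcd3 had 6.86 on normoosmotic replicate 3, below the others at 7.17 to 7.23. Among genes named after their values were seen, Mrpl36 had 5.78 on hypoosmotic replicate 2, above the others at 5.28 to 5.33. The hepatocyte marker Alb had 12.95 on hypoosmotic replicate 3, below the others, all at 13.08. The stellate marker Dcn had 5.82 on hypoosmotic replicate 4, below the others at 7.96 to 8.01.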

How the results depend on the processing

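The median change of the members stayed above 0 under all 16 alternatives, between 0.135 and 0.23 without 1 array in turn and between 0.14 and 0.22 under the other settings, and the median of all genes lay between -0.025 (arrays centred on their medians) and 0.023. For the large subunit the median ran from 0.13 to 0.25 without 1 array and for the small subunit from 0.11 to 0.22. Of the 68 members, 52 kept their sign in all 16 alternatives, 49 of them higher and 3 lower. The number of members that passed as higher depended on the setting. It was 1 as reported, 4 with the replicate block (Mrpl15, Mrpl16, Mrpl40 and Mrps16), 4 after the further quantile normalization (Mrpl15, Mrpl16, Mrps15 and Mrps16), 2 with array weights (Mrpl15 and Mrps16), 0 with an intensity trend, 0 with arrays centred on their medians and 0 to 2 without 1 array. The number that passed as lower was 0 in each setting. The replicate numbers were not shown to pair the samples. Same-numbered arrays correlated in their deviations from the group means at 0.006, 0.26, 0.12 and 0.063, and hypoosmotic arrays 2, 3 and 4 correlated best with their own number, array 3 narrowly (0.116, against 0.111 with normoosmotic array 1), while array 1 correlated best with normoosmotic array 2 (0.15). Of the genes around the mitoribosome, 4 passed as higher as reported and 2 to 5 without 1 array. Under the other settings 2 to 6 did, with 2 when arrays were centred on their medians. As lower, 6 passed as reported, 2 to 8 without 1 array and 4 to 8 under the other settings. Over all genes 1026 passed, 468 to 1051 without 1 array and 968 to 1183 under the other settings. Gtpbp10 was also lost with an intensity trend (0.0501) and with centring (0.0732), Guf1 with the replicate block (0.0505) and with centring (0.0755), and Mterf3 and Tfb2m after quantile normalization (0.0649 and 0.0565). Fits without 1 array hold fewer samples. For the other settings the cause was not tested.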
